A study of Mus musculus with 6 samples.

Results

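The TRIM proteins are a large family of ubiquitin ligases, many of which act in antiviral defence. Their genes were taken as every entry of the deposited expression table whose symbol starts with Trim followed by a digit, which gave 68 of 25124 genes. Of these, 35 reached 1 TPM (a transcript's read count scaled for its length and for the library) in at least 3 of 6 libraries and are called measured, as did 11235 genes in all. The other 33 are called not expressed. Messenger RNA was sequenced from macrophages grown from the marrow of wild-type C57BL/6 mice aged 8 weeks, with 3 libraries in each of 2 groups. All cells were cultured for 7 days in macrophage colony-stimulating factor (M-CSF) at 20 ng/ml. The M0 group stayed in M-CSF alone, and the M2 group received interleukin-4 (IL-4) at 10 ng/ml in addition to M-CSF, with RNA taken 4 h later. The labels do not say whether replicates came from separate animals or cultures, so p-values measure only the spread between these libraries, which may be technical. Because whole cultures were sequenced, a lower value from fewer cells of a type cannot be told apart from less RNA per cell.

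A typical TRIM protein carries a RING finger, which recruits a ubiquitin-loaded E2 enzyme, then B-box zinc fingers and a coiled coil through which the proteins dimerise. The C-terminal domain selects the target, and in the largest subgroup it is a PRY-SPRY domain that binds viral or cellular proteins. In macrophages several members tune the pathways from RNA, DNA and Toll-like receptor sensing to interferon, and a number of them are themselves interferon-induced. Another subgroup, with a PHD finger and bromodomain, acts in the nucleus on chromatin.

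Recovered read totals ran from 16913185 to 19019896 per library, and each measured member held 164 to 28600 reads over the 6 libraries. All 8 macrophage identity markers were measured, with summed levels of 16654 to 17763 TPM in M0 and 15515 to 15887 TPM in M2. Most of each sum is Lyz2. The groups did not overlap in Fcgr1, at 119 to 134 TPM in M0 and 19.6 to 21.7 TPM in M2. Csf1r was at 661 to 684 and 911 to 915 TPM, also without overlap. Of the 8 markers, only Adgre1 (505 to 586 and 525 to 543 TPM) and Spi1 (371 to 437 and 388 to 395 TPM) overlapped between groups. The IL-4 response gene Retnla was at 0 to 0.392 TPM in M0 and 4720 to 4991 TPM in M2. Markers of other cells were low: 0 of 6 for T and NK cells (Cd8a at 0) reached 1 TPM in 3 libraries. That level was also reached by 0 of 5 for mast cells and basophils (Mcpt8 and Tpsb2 at 0) and 0 of 4 for dendritic cells. Summed dendritic markers were 0.292 to 0.551 TPM in M0 and 1.08 to 1.33 TPM in M2. Most of the M2 sum is Zbtb46, at 0.035 to 0.13 TPM in M0 and 0.996 to 1.12 TPM in M2. Xcr1 was lower in M2 (0.189 to 0.282 and 0.06 to 0.154 TPM), and Flt3 and Siglech were at most 0.109 TPM. The only B cell marker measured was Cd79b, with list sums of 1.85 to 1.98 and 1.10 to 1.58 TPM. Neutrophil markers (4 of 7 measured) summed to 34.9 to 41.8 TPM in M0 and 31.6 to 39.5 TPM in M2. Fibroblast markers (2 of 5 measured) summed to 9.37 to 9.83 and 6.95 to 7.43 TPM, and the part of these cells in the results was not tested. M0 replicate 2 stood apart from the other M0 libraries. Its median absolute log2 difference from them over genes was 0.130 and 0.137, against 0.0703 between M0 replicates 1 and 3 and 0.0587 to 0.0603 between M2 libraries, and it was the highest M0 library in 19 of the 35 measured TRIM genes and the lowest in 10. Without it, 23 TRIM genes were lower and 2 higher, against 23 and 3 with it.

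Promoter sequence is shown for 7 measured members because they share a short motif near the start of transcription and include the genes with the largest falls on chromosome 7. The stretches run from 70 bases before to 30 bases after the RefSeq start, 5′ to 3′ on the gene's strand, in build GRCm38.p6. Capitals mark matches, on either strand, to the core of the interferon-stimulated response element (ISRE), searched as GAAA and GAAA with any 2 bases between them.
Trim30a, chr7:104465164-104465263, minus strand: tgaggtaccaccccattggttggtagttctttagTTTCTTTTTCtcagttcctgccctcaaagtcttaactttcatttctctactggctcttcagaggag
Trim30d, chr7:104507820-104507919, minus strand: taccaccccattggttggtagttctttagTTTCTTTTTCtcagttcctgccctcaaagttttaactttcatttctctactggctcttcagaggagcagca
Trim12a, chr7:104315466-104315565, minus strand: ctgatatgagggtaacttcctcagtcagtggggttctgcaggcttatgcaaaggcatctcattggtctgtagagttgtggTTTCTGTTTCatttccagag
Trim12c, chr7:104353320-104353419, minus strand: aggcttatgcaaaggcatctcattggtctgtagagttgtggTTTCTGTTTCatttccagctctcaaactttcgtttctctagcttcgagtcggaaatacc
Trim5, chr7:104288077-104288176, minus strand: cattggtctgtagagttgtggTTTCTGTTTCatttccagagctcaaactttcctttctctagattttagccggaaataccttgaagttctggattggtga
Trim34a, chr7:104244387-104244486, plus strand: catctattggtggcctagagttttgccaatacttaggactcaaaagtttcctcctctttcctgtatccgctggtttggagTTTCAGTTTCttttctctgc
Trim21, chr7:102565453-102565552, minus strand: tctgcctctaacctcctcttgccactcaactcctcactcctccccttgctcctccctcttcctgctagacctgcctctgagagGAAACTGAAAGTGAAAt

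Within 300-base windows (250 bases before to 50 after the start), 8 of the 26 measured members with a RefSeq window held an ISRE core match. Counted by window, since a gene can have several starts, these were 9 of 32 windows, or 28.1%. No window was matched for Trim3, Trim8, Trim11, Trim14, Trim16, Trim33, Trim35, Trim36 and Trim65. The same letters were found in 3.44% of 32851 windows of all genes and in 3.31% of the 11161 windows of tested genes. The 8 members were Trim5, Trim12a, Trim12c, Trim21, Trim26, Trim30a, Trim30d and Trim34a. In all but Trim26 the match lay close to the start: its first base was 49 bases before it in Trim5, 41 in Trim30d, 36 in Trim30a and 29 in Trim12c, and it began at base 11 after the start in Trim12a and Trim34a. Trim21 held overlapping matches at bases 14 and 20, and the second listed start of Trim30a had one at base 3. In Trim26 overlapping matches began 160 and 154 bases before the start. These windows are not independent, since cluster genes are copies of one another: the longest identical run was 241 bases between Trim5 and Trim12a, 118 between Trim30a and Trim30d, and 71 between Trim5 and Trim12c. The gamma-activated sequence, searched on both strands as TTC and GAA with any 3 bases between them, was found in 1 of 26 members, Trim45. Counted by window this was 3.12%, against 6.79% of the windows of tested genes. The spacing preferred by STAT6, the factor activated by IL-4 signalling, has 4 bases between TTC and GAA. It was found in 2 members, Trim39 and Trim68, or 6.25% of member windows, against 5.49% of the windows of tested genes. A match is a description of letters, and binding was not measured.

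**Figure D1:**
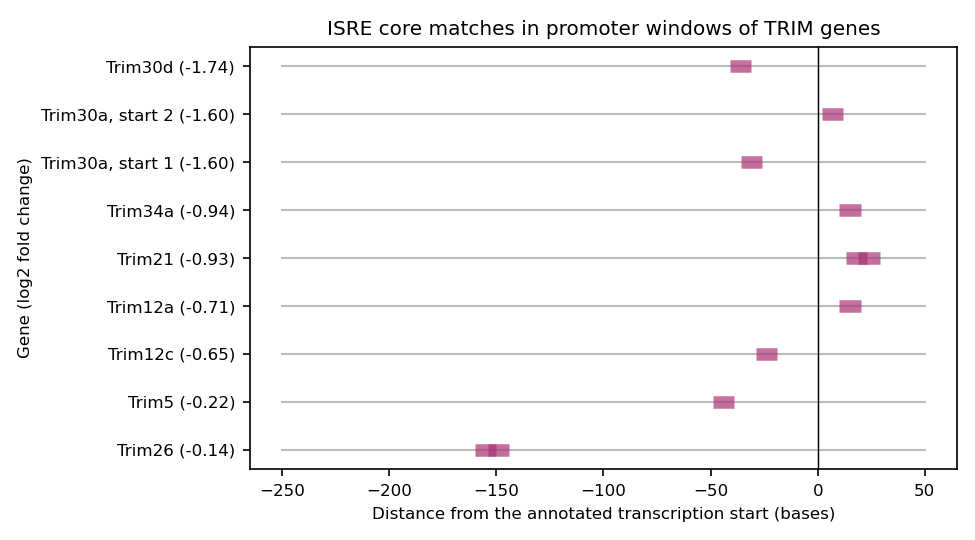
Positions of ISRE core matches relative to the RefSeq start of transcription (horizontal axis, bases, with 0 at the start), for each window of a measured TRIM gene that holds one. Each bar spans the bases of 1 match and each grey line a 300-base window, with the gene's log2 fold change (M2 minus M0) in its label. All matches but those of Trim26 lie within 50 bases of the start.

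M2 macrophages held less TRIM messenger RNA than M0 macrophages. Summed over the 35 measured members, the level was 741, 729 and 695 TPM in the M0 libraries and 495, 509 and 502 TPM in the M2 libraries. All 3 M2 sums lay below all 3 M0 sums. Between groups, 23 members were lower in M2 and 3 were higher at an adjusted p under 0.05 (limma, on log2 of TPM plus 1, all 11235 genes adjusted together), and 9 did not pass. One of the 23, Trim45, reached 1 TPM in M0 only, so the filter fixed its direction, and 22 of the other 34 were lower. Lower calls were also common outside the family: 45.3% of all tested genes were lower and 17.7% higher (62.9% in either direction), against 65.7% and 8.57% of the TRIM genes. The median log2 fold change (M2 minus M0) was -0.27 for the members and -0.15 for all tested genes. After each library was divided by its median-ratio size factor, which brought the median of all genes to 0.00, 15 members were lower (42.9%) and 5 higher (14.3%), with a median of -0.11. Of all tested genes, 28.2% were lower and 28.8% higher on that scale (56.9% in either direction). Every M2 library lay below every M0 library in 26 members (74.3%, against 49.8% of all tested genes), and every M2 library lay above in 4 (11.4%, against 19.6%). In the authors' deposited table of the comparison, 15 members were lower and 3 higher at an adjusted p under 0.05, and 25.8% of tested genes were called in each direction. That table keeps the same transcript as the TPM table for 23 of the 35 members.

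**Figure D2:**
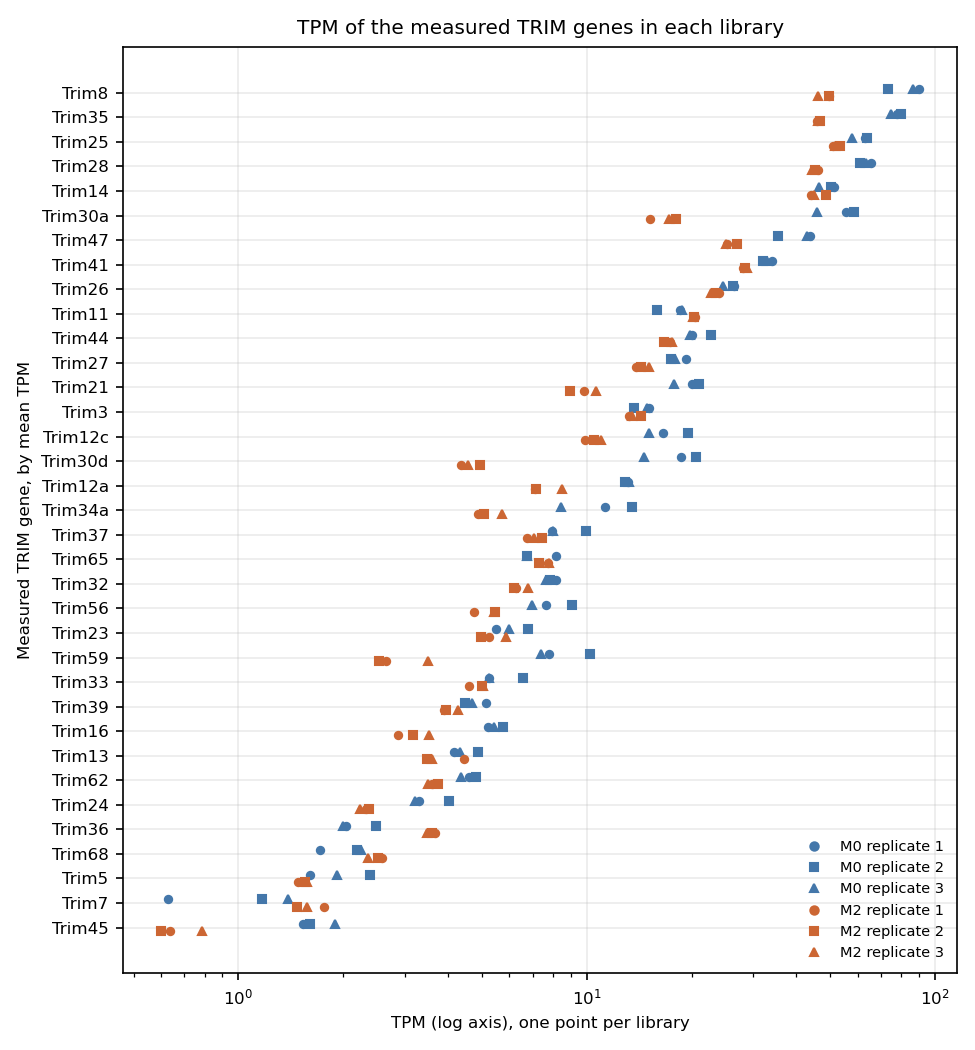
Level of each measured TRIM gene (horizontal axis, TPM, log scale) in every library, with 1 point per library and colours for the M0 and M2 groups. Genes are ordered by mean level, from Trim8 at the top, and most M2 points lie to the left of the M0 points.

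The most abundant members were Trim8, Trim35, Trim25, Trim28 and Trim14, and 4 of these averaged at least 50 TPM over the libraries. Another 13 members averaged 10 to 50 TPM and 18 averaged under 10. The order changed between groups: Trim8 led in M0, and Trim25 led in M2. In M0 the ranges of Trim8 and Trim35, of Trim28 and Trim25, and of Trim30a and Trim14 overlapped, and their order differed between libraries. The M0 range of Trim30a also overlapped that of Trim25, but Trim25 was higher in each M0 library. Differences between genes were not tested. In M2 every Trim25 library was above every Trim8 library.

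Trim8, a RING ligase linked to cytokine and NF-kB signalling, measured 90.0, 73.4 and 86.6 TPM in M0 and 49.5, 49.6 and 46.1 TPM in M2. No M2 library reached the lowest M0 library. Its level fell from 83.4 ± 8.79 to 48.4 ± 1.97 TPM (mean ± SD, n = 3 per group), 1.72-fold, with a log2 fold change of -0.77 (SE 0.07, limma adjusted p = 7.62e-06). Trim35, reported to act on the interferon regulator IRF7, measured 77.7, 79.6 and 74.7 TPM in M0 and 45.7, 46.9 and 46.3 TPM in M2. The libraries of each group were tightly grouped and the groups were far apart. Trim35 fell 1.67-fold, by 0.73 on the log2 scale (SE 0.04, limma adjusted p = 2.67e-07). It overlaps 1700001G11Rik on the opposite strand, and without a stated strand setting reads of the overlap cannot be told apart.

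Trim25, the ligase that ubiquitinates the RNA sensor RIG-I, measured 63.0, 63.7 and 57.8 TPM in M0 and 51.1, 53.5 and 51.6 TPM in M2. The groups did not overlap, and the step between them was small. Trim25 was 1.18-fold lower in M2 (log2 fold change -0.24, SE 0.05, limma adjusted p = 0.00247). After median scaling the difference was -0.07 and no longer passed (adjusted p = 0.261). Trim14, an adaptor of the mitochondrial antiviral protein MAVS that lacks a RING finger, measured 51.2, 50.4 and 46.5 TPM in M0 and 43.9, 48.7 and 45.1 TPM in M2. One M2 library lay above the lowest M0 library. The log2 fold change of Trim14 was -0.10, with a 95% interval from -0.23 to 0.02, and did not pass (limma adjusted p = 0.142). After median scaling it was 0.07. Trim14 overlaps Gm16731 on the opposite strand and shares 8.48% of its 50-base stretches with that entry alone, so its value is uncertain.

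**Figure D3:**
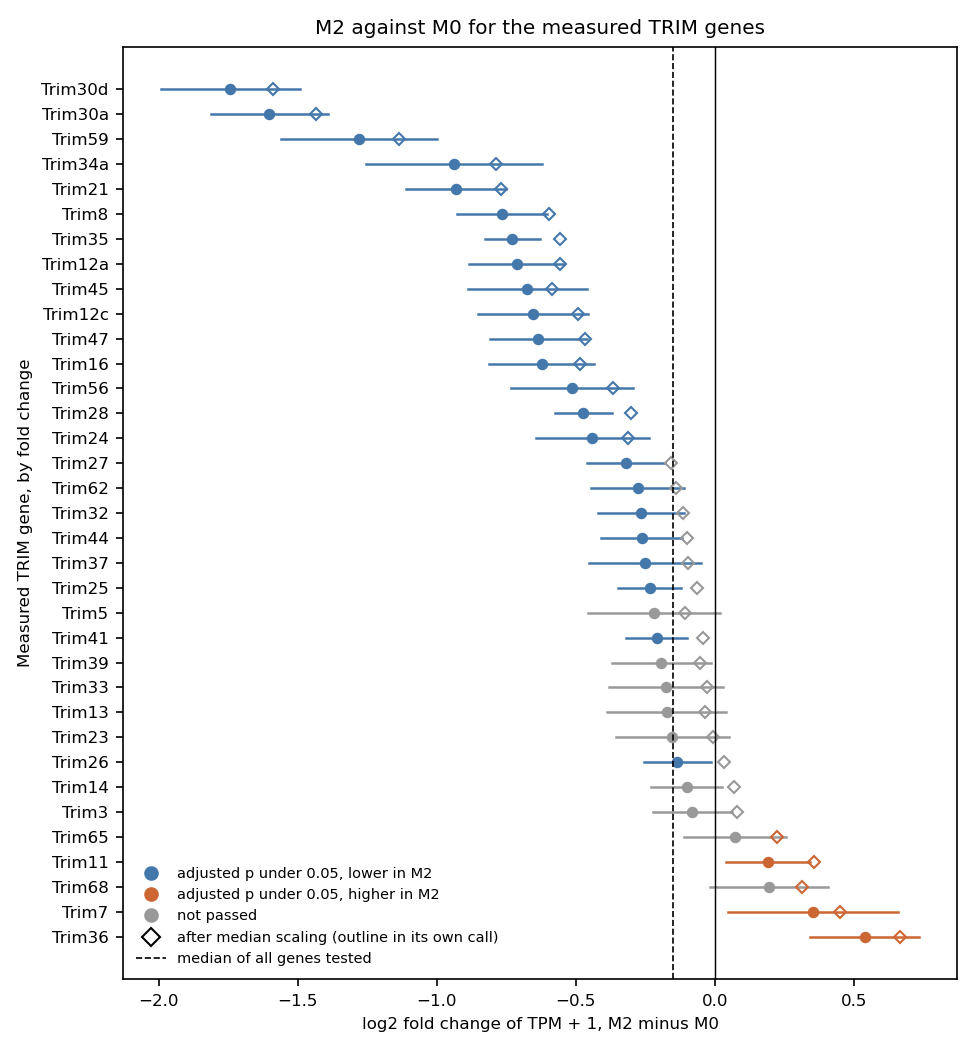
Log2 fold change of each measured TRIM gene (horizontal axis, M2 minus M0, log2 of TPM plus 1), with 95% intervals, ordered by size. Filled points are values as deposited, open diamonds are values after median scaling, and colours mark lower, higher and not passed. The dashed line marks the median of all tested genes at -0.15, with 27 of 35 members to its left.

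The largest falls, in Trim30d and Trim30a, lay in a group of related genes on chromosome 7. The mouse cluster, related to the gene of the retroviral capsid restriction factor TRIM5, holds 10 entries, of which 6 were measured: Trim34a, Trim5, Trim12a, Trim12c, Trim30a and Trim30d. They lie between 104244457 and 104507849 in mm10. Their summed level was 117, 127 and 99.2 TPM in M0 and 42.9, 47.3 and 48.6 TPM in M2. In all 6 the M2 libraries lay below the M0 libraries, against 49.8% of all tested genes, and 5 passed the test as lower while Trim5 did not, against 45.3% of all tested genes. Their median log2 fold change was -0.83, or -0.67 after median scaling, with 5 lower there too, against 28.2% of all tested genes.

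Trim30a, which restrains Toll-like receptor signalling to NF-kB by acting on the TAB2 and TAB3 adaptors, has 8 exons on the minus strand at 104409026 to 104465193 of chromosome 7 (NM_009099). It measured 55.7, 58.5 and 45.9 TPM in M0 and 15.2, 18.1 and 17.3 TPM in M2. Even the lowest M0 library was well above every M2 library. Trim30a fell from 53.3 ± 6.60 to 16.9 ± 1.5 TPM, 3.16-fold, with a log2 fold change of -1.60 (SE 0.09, limma adjusted p = 3.04e-07). Its rank among the measured members went from 5 in M0 to 11 in M2.

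Trim30d, its neighbour and copy, lies at 104470014 to 104507849 on the same strand (NM_001167828). It measured 18.7, 20.7 and 14.6 TPM in M0 and 4.36, 4.95 and 4.57 TPM in M2. The groups were widely separated, and the M0 libraries spread more than the M2 libraries. Trim30d fell from 18 ± 3.10 to 4.63 ± 0.298 TPM, 3.89-fold, with a log2 fold change of -1.74 (SE 0.11, limma adjusted p = 3.84e-07). After median scaling the falls were -1.44 for Trim30a and -1.59 for Trim30d. By comparison, 4.61% of tested genes were lower by at least 1 on the log2 scale, and 3 members were: Trim30a, Trim30d and Trim59. These 3 were also lower by at least 1 after median scaling, as were 3.3% of tested genes. No member was higher by at least 1 (0 of 35), against 3.35% of tested genes, or 4.39% after median scaling.

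The other measured cluster genes had smaller estimates. Trim34a measured 11.3, 13.5 and 8.41 TPM in M0 and 4.86, 5.06 and 5.70 TPM in M2, a 2.12-fold fall (log2 fold change -0.94, SE 0.14, limma adjusted p = 0.000315). Trim12a was nearly level within M0, at 13.1, 12.9 and 13.2 TPM, and measured 7.12, 7.17 and 8.50 TPM in M2 (log2 fold change -0.71, limma adjusted p = 1.8e-05). Trim12c measured 16.6, 19.6 and 15.1 TPM in M0 and 9.90, 10.5 and 11 TPM in M2 (log2 fold change -0.65, limma adjusted p = 0.000109). In each of these genes the groups were apart. Trim5, the mouse gene that carries the restriction factor's name, was low throughout, at 1.60, 2.39 and 1.91 TPM in M0 and 1.48, 1.56 and 1.57 TPM in M2. Its M2 libraries sat just under its lowest M0 library. The log2 fold change was -0.22, with an interval from -0.46 to 0.02, and did not pass (limma adjusted p = 0.0965). It passed without M0 replicate 1 (-0.31, adjusted p = 0.0327).

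Reads of these copies cannot always be assigned to one gene. The share of a transcript's 50-base stretches found in transcripts of other genes was 62.2% in Trim34a, 42% in Trim12c, 38.4% in Trim5 and 31.2% in Trim12a, so the values of these genes are uncertain. It was 8.29% in Trim30d, 6.61% in Trim59 and 6.53% in Trim30a, so a smaller part of their values is uncertain. Among the 33 members with a matched transcript, 19 shared under 1%. Trim12a also overlaps Gm15133 on the opposite strand.

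**Figure D4:**
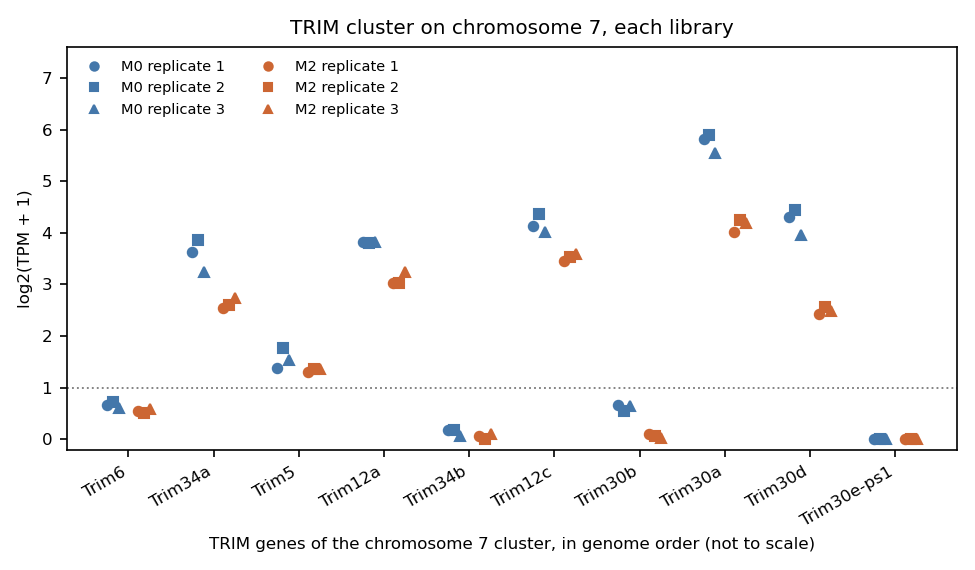
Levels of all 10 entries of the chromosome 7 cluster in every library (vertical axis, log2 of TPM plus 1), in genome order, with M0 and M2 points side by side and a dotted line at 1 TPM. In each of the 6 measured genes all 3 M2 points lie below all 3 M0 points, and the gap is widest for Trim30d and Trim30a.

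The ISRE core matches were set beside the fold changes. Of the 8 members with a match, 7 were lower and 0 higher, with a median log2 fold change of -0.82 and a range from -1.74 to -0.14. Of the 18 members with a window and no match, 13 were lower and 1 higher, with a median of -0.27. After median scaling 6 of 8 and 6 of 18 were lower. Trim45, whose direction the filter fixed, is among the 13 and among the 6 of 18. Of all tested genes 45.3% were lower, and 28.2% after median scaling. Of the 8, 6 are cluster genes, and the other two are Trim21 and Trim26, several of which are copies of one another, so these are not 8 independent cases. The difference between members with and without a match was not tested. Windows of Trim6, Trim34b and Trim30b, cluster genes that were not expressed, held no match. Of these, Trim30b held 66 reads in M0 and 6 in M2. Trim2, outside the cluster and also not expressed, held a match at base 29 after a listed start, with 250 reads in M0 and 227 in M2.

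Among the other PRY-SPRY members, Trim21, a cytosolic antibody receptor that also acts on interferon regulatory factors, lies on chromosome 7 at 102557920 to 102565482, outside the cluster. It measured 20.0, 21.0 and 17.8 TPM in M0 and 9.80, 8.95 and 10.6 TPM in M2. No value was shared between the groups. Trim21 fell 2.0-fold, from 19.6 ± 1.64 to 9.79 ± 0.846 TPM (log2 fold change -0.93, SE 0.08, limma adjusted p = 4.01e-06). Of the 15 measured PRY-SPRY members outside the cluster, 9 were lower, 2 higher and 4 did not pass, with a median log2 fold change of -0.21. The all-gene shares were 45.3% lower and 17.7% higher. After median scaling 4 were lower and 4 higher, 26.7% each, close to the 28.2% and 28.8% of all tested genes. Those that fell included Trim47 (-0.64), Trim16 (-0.62), Trim27 (-0.32), Trim62 (-0.28), a ligase of the adaptor CARD9, and Trim41 (-0.21). Trim27, Trim62 and Trim41 did not pass after median scaling (-0.16, -0.14 and -0.04, adjusted p = 0.0573, 0.106 and 0.49), and the last 2 did not with the authors' log2 values either. Trim26 was at -0.14 with an adjusted p of 0.0494, its sign turned after median scaling (0.03), and its call was lost without M0 replicate 1 (-0.12, adjusted p = 0.134) and without each M2 library in turn (-0.15 to -0.12). Trim39 missed the threshold at -0.19 (limma adjusted p = 0.0561), and passed without M0 replicate 2 (-0.23, adjusted p = 0.0239).

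The 2 PRY-SPRY members that rose were Trim11 and Trim7. Trim11, a ligase linked to protein quality control, was at 0.19 on the log2 scale (limma adjusted p = 0.0326), or 0.35 after median scaling. Trim7, known as a partner of glycogenin, ranged from 0.626 to 1.39 TPM in M0 and from 1.47 to 1.76 TPM in M2, with a log2 fold change of 0.35 (limma adjusted p = 0.0446). Trim7 shares 15.6% of its 50-base stretches with other transcripts. Calls of both genes were lost in several fits that left out 1 library. Trim11 did not pass without M2 replicate 1, 2 or 3, though its estimate hardly changed (0.19, 0.19 and 0.20, adjusted p from 0.0785 to 0.0897). Trim7 was at 0.19 without M0 replicate 1 (adjusted p = 0.154), 0.40 without M0 replicate 2 (adjusted p = 0.0559), and 0.31 to 0.39 without each M2 library in turn, and passed in none of these. Trim65, a ligase of the RNA sensor MDA5, and Trim68 stood at 0.07 and 0.19 without passing, and passed as higher after median scaling (0.22 and 0.31).

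The remaining gene that rose was Trim36, a COS-box member that binds microtubules. It measured 2.03, 2.48 and 1.99 TPM in M0 and 3.68, 3.6 and 3.48 TPM in M2. Every M2 library was above every M0 library. Trim36 was 1.66-fold higher in M2 (log2 fold change 0.54, SE 0.09, limma adjusted p = 0.000388).

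Nuclear members with a PHD finger and bromodomain divided between Trim28 and Trim24, which fell, and Trim33, which did not pass. Lower calls were 2 of 3, before and after median scaling, against 45.3% and 28.2% of all tested genes. Trim28, also called KAP1, is the corepressor that KRAB zinc finger proteins bring to retroelements. It measured 65.6, 61.1 and 63.3 TPM in M0 and 46.1, 45.4 and 44.4 TPM in M2. The groups were well apart. Trim28 fell 1.40-fold, by 0.47 on the log2 scale (SE 0.05, limma adjusted p = 9.76e-06), or 0.30 after median scaling. Trim24, a reader of histone marks, measured 3.30, 4.02 and 3.21 TPM in M0 and 2.32, 2.37 and 2.23 TPM in M2. Its M2 libraries lay within a narrow band below all M0 libraries. Trim24 fell 1.52-fold (log2 fold change -0.44, SE 0.09, limma adjusted p = 0.0018). Trim33, which acts with SMAD proteins in TGF-beta signalling, measured 5.23, 6.54 and 5.24 TPM in M0 and 4.59, 5.02 and 5.05 TPM in M2. Its groups did not overlap, and 1 M0 library was well above the others. The log2 fold change was -0.18 (95% interval -0.38 to 0.03, limma adjusted p = 0.121).

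Of the 2 measured membrane-anchored members, 1 was lower, before and after median scaling, against 45.3% and 28.2% of all tested genes. Trim59 lies on chromosome 3 at 69035294 to 69044742 and has 3 exons (NM_025863). It measured 7.80, 10.2 and 7.42 TPM in M0 and 2.65, 2.54 and 3.49 TPM in M2. The lowest M0 library was well above the highest M2 library. Trim59 fell from 8.47 ± 1.51 to 2.89 ± 0.523 TPM, 2.93-fold (log2 fold change -1.28, SE 0.13, limma adjusted p = 1.04e-05). Trim13, which sits in the endoplasmic reticulum membrane, overlapped between groups and did not pass (-0.17), though it did without M2 replicate 1 (-0.26, adjusted p = 0.0489). It shares 15.1% of its 50-base stretches with other transcripts and overlaps Dleu2 on the opposite strand.

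Of the 6 measured members with no C-terminal domain or with a domain of their own, 5 were lower and 1 did not pass, with Trim8 among those that fell and all-gene shares of 45.3% and, after median scaling, 28.2%. After median scaling 3 of the 6 were lower. One of the 5 is Trim45, whose direction the filter fixed. Trim56, which is reported to promote DNA sensing through cGAS and STING, measured 7.67, 9.10 and 6.95 TPM in M0 and 4.74, 5.47 and 5.42 TPM in M2. The groups did not overlap, and M0 replicate 2 was the highest library. Trim56 fell 1.52-fold (log2 fold change -0.51, SE 0.10, limma adjusted p = 0.00108). Among the NHL-repeat members, Trim32 measured 8.19, 7.85 and 7.65 TPM in M0 and 6.25, 6.18 and 6.76 TPM in M2, without overlap. Its log2 fold change was -0.27 (SE 0.07, limma adjusted p = 0.00705), and it did not pass after median scaling (-0.11, adjusted p = 0.163). Trim32 overlaps Astn2 on the opposite strand. Trim3, the other NHL member, did not pass (-0.08), and its sign turned after median scaling (0.08).

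Trim45 passed the level filter only through M0, where it was at 1.53, 1.61 and 1.89 TPM, against 0.600 to 0.787 TPM in M2, so it had to be lower (-0.68). Trim44, which lacks a RING finger, and Trim37 fell by 0.26 and 0.25 on the log2 scale, and Trim23, whose C-terminal end is an ARF-type GTPase domain, did not pass (-0.15). Neither Trim44 nor Trim37 passed after median scaling (both at -0.10, adjusted p = 0.155 and 0.324), nor with the authors' log2 values. Trim37, which overlaps Ppm1e on the opposite strand, did not pass without M0 replicate 2 (-0.15, adjusted p = 0.0518), M2 replicate 1 (-0.22) or M2 replicate 3 (-0.25). Near the filter, Trim5, Trim7 and Trim45 lay just inside it, and Trim46 (at most 1.06 TPM, with 2 libraries at or above 1) and Trim2 (0.654 to 0.902 TPM) lay just outside.

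The genes around the TRIM family in its pathways were read from the same fit. The sensing and interferon-induction list, the receptors, adaptors and kinases among which several TRIM ligases act, was tested in 19 genes: 14 were lower, 2 higher and 3 did not pass, with a median log2 fold change of -0.41. After median scaling 12 were lower and 4 higher. Of all tested genes 45.3% were lower and 17.7% higher, or 28.2% and 28.8% after median scaling. The largest falls were in the RNA sensors Dhx58 (44.1 ± 2.78 to 13.5 ± 1.05 TPM, log2 fold change -1.64) and Ddx58, which encodes RIG-I (29.1 ± 2.99 to 10.0 ± 0.914 TPM, -1.45). They were followed by the interferon regulator Irf7 (-1.31) and the DNA sensor Cgas (-1.20). Tmem173, the gene of STING, and Irf3 did not pass (0.10 and 0.13), with limma adjusted p of 0.164 and 0.167. Both passed as higher after median scaling (0.26 and 0.29), and with the authors' log2 values. Tmem173 also passed with limma-voom on recovered reads (0.15, adjusted p = 0.0358) and without M0 replicate 2 (0.14, adjusted p = 0.0171). Without M2 replicate 2 the list held 1 higher gene.

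ISG15 is a ubiquitin-like modifier that has its own activating, conjugating and removing enzymes. All 5 genes of that list were lower, before and after median scaling, with a median of -0.82, against 45.3% of all tested genes before and 28.2% after scaling. Isg15 fell 7.75-fold, from 80.4 ± 11.8 to 10.4 ± 0.687 TPM (log2 fold change -2.83). Herc6, the mouse ISG15 ligase, was at -1.12, the deconjugating enzyme Usp18 at -0.82 and the conjugating enzyme Ube2l6 at -0.74.

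The E1 and E2 enzymes that load RING ligases were tested in 13 of 14 genes, of which 11 were lower, 0 higher and 2 did not pass, with a median of -0.23. That count depended on scaling: after median scaling 2 were lower, 0 higher and 11 did not pass. The share of the list called lower was 84.6% against 45.3% of all tested genes, and 15.4% against 28.2% after median scaling. The largest falls were in Ube2w (-0.45), Ube2e3 (-0.39), Ube2n (-0.31), which builds lysine-linked chains in innate signalling, and Ube2k (-0.30). Ube2n and Ube2k did not pass after median scaling (adjusted p = 0.112 and 0.164) or with the authors' log2 values. Ube2v1 and Ube2e2 did not pass (-0.09 and -0.05).

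Partners of Trim28 in heterochromatin were tested in 12 genes: 8 were lower, 1 higher and 3 did not pass, with a median of -0.31, and 6 were lower and 2 higher after median scaling. Of all tested genes 45.3% were lower, or 28.2% after median scaling. The largest falls were in Uhrf1 (15.6 ± 0.214 to 5.07 ± 0.501 TPM, -1.45) and Dnmt1 (-0.83), which maintain DNA methylation at replication, followed by Mphosph8 (-0.82) and Morc2a (-0.52). Setdb1, the histone methyltransferase recruited by Trim28, and Cbx3 did not pass (-0.11 and -0.12), and both turned sign after median scaling (0.05 and 0.03). Atf7ip, the cofactor of Setdb1, was the gene that rose (0.27), and the list held no higher gene without M0 replicate 1, M0 replicate 3 or M2 replicate 2. Of TRIM-type genes with other names, 3 of 5 were tested. Among these, 1 was lower and 1 higher, against 45.3% and 17.7% of all tested genes. Mefv, the gene of pyrin, was higher (0.56) but reached 1 TPM in M2 only, so the filter fixed its direction. Mid1 did not pass (-0.16), and Pml, a nuclear body scaffold, fell (-0.20). Pml did not pass after median scaling (-0.04), without M0 replicate 1 (-0.17) or without each M2 library in turn (-0.21 to -0.19).

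**Figure D5:**
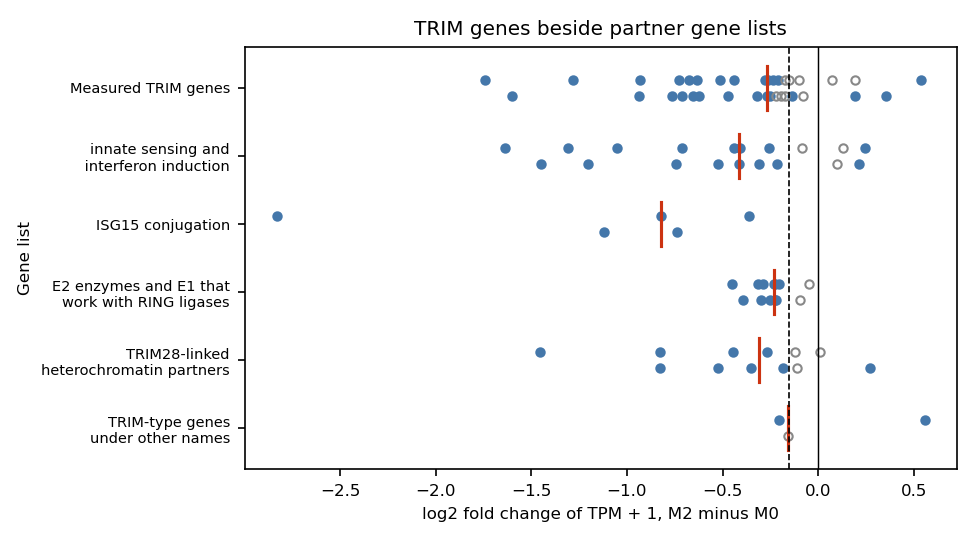
Log2 fold changes (M2 minus M0, log2 of TPM plus 1) of the tested genes of each pathway list and of the measured TRIM genes, with 1 point per gene (filled where the gene passed, open where it did not) and a bar at each list's median. Medians run from -0.82 for ISG15 conjugation to -0.16 for TRIM-type genes under other names, and the dashed line marks the median of all tested genes at -0.15.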

How the data were processed

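Per the submitters' processing notes, reads were handled with bcl2fastq, STAR, HOMER 4.11.1 and DESeq2 on build mm10. Settings are not given in the sources used here. The authors deposited TPM per gene and library, counted by HOMER over RefSeq transcripts per the file headers, and a table of the comparison with values on a log2 scale, log2 fold changes and p-values. How the log2 values were transformed is not stated. Each table holds 25124 genes, and 3 entries shifted by commas were realigned. Groups and replicate numbers come from the sample titles. Gene coordinates follow the deposited tables (mm10), with exon numbers from GENCODE transcripts and promoter windows from RefSeq (GRCm38.p6).

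TPM times transcript length gave whole reads within 0.1 read for 99.8% to 99.9% of values, so reads could be recovered. One read per kilobase of transcript was worth 0.0610 to 0.0700 TPM. Read intervals (95%) cover counting error only.

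A two-sided limma-trend test with robust moderation (limma 3.58.1 in R 4.3.3) was run on log2 of TPM plus a pseudocount of 1, over genes with at least 1 TPM in at least 3 libraries, with group as the only term and Benjamini-Hochberg adjustment over 11235 genes at 0.05. It was tested on simulated data. A log2 fold change on this scale understates changes of low genes. Fold changes given as "-fold" are ratios of mean TPM. Alternatives were pseudocounts of 0.1 and 5, no filter, median-ratio scaling (size factors 0.941 to 1.09), limma-voom on recovered reads, the authors' log2 values, the replicate number as a block, and each library left out in turn. Python 3.11.15 with numpy 2.4.6, pandas 2.3.3 and matplotlib 3.10.9 made tables and plots.

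The members and lists were chosen with earlier results of these data known. Values in every library are given for members past the threshold whose log2 fold change was 1 or more in size, the 5 with the highest mean TPM, and Trim5, Trim14, Trim21, Trim24, Trim25, Trim28, Trim30a, Trim32, Trim33 and Trim56. Other members have log2 fold changes. Per-library values of Trim12a, Trim12c, Trim34a, Trim36, and those of Trim45 in M0, were added after values were seen. Each pathway list names up to 4 genes that passed with the largest change and up to 2 that missed with the smallest adjusted p. Atf7ip and Traf6 were named outside this rule.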

Additional observations from a re-analysis of the deposited data

How the results depend on the processing

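Of the 23 lower TRIM genes, 15 stayed lower under every setting, and 21 in every fit that left out 1 library. Without Trim45, whose direction the level filter fixed, these counts were 14 and 20. Median scaling gave 15 lower and 5 higher TRIM genes, and the authors' log2 values gave 16 lower and 5 higher. Leaving out 1 library gave 21 to 23 lower and 1 to 3 higher. After median scaling and with the authors' values, the sensing list held 4 higher genes, the E1 and E2 list 2 lower, the Trim28 partners 2 higher, and the TRIM-type genes under other names 0 lower. Leaving out 1 library gave 1 to 3 higher in the sensing list, 9 to 11 lower in the E1 and E2 list, 0 to 1 higher among Trim28 partners, and 0 to 1 lower among the TRIM-type genes. Among the measured TRIM genes and the list genes named by rule, signs turned for those that follow. Log2 fold changes are given after median scaling and then with the authors' values: Trim3 0.08 and 0.075, Trim26 0.03 and 0.026, Trim14 0.067 and 0.062, Ube2v1 0.069 and 0.061, Ube2e2 0.05 and 0.033, Setdb1 0.055 and 0.052, Cbx3 0.025 and 0.02. Traf6, another gene of the sensing list, turned from -0.08 to 0.07 after median scaling. Mid1 turned with the authors' values alone (0.076), and Ube2e2 also without M0 replicate 1 (0.015) and without M2 replicate 1 (0.003). Apart from the shift of the median of all genes by scaling, from -0.15 to 0.00, the cause was not tested. With replicate number as a block, 22 TRIM genes were lower and 3 higher, and the call of Trim26 was lost (adjusted p = 0.0678). Deviations of same-numbered libraries from their group means correlated at 0.005, -0.005 and -0.043. The M2 libraries differed little from one another, so these correlations cannot show whether same-numbered libraries share an origin. Limma-voom on recovered reads gave 22 lower and 3 higher. The measured member with the fewest reads, Trim7, held 164 over the 6 libraries, and 3 libraries a group limit the precision of every value.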

Other observations

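Some of the 33 members that were not expressed still held reads. No read was found for 4 of them, 12 held at least 10 reads over the 6 libraries, and no value was above 1.06 TPM. Trim30b, which lies in the chromosome 7 cluster beside Trim30a, held 25, 19 and 22 reads in M0 and 3, 2 and 1 in M2. Every M2 library was far below every M0 library. The ratio of its read rates, M0 over M2, was 10.9 (95% interval 4.76 to 30.8, exact, counting error only), and without the level filter its log2 fold change was -0.55 (limma adjusted p = 0.000142). Reads of Trim30b are uncertain, as for the other copies in the cluster. Trim46, a COS-box member, held 112 reads in M0 and 52 in M2, a ratio of 2.14 (1.53 to 3.03). Trim2, an NHL-repeat member, held 250 and 227 reads, a ratio of 1.09 (0.910 to 1.32). Other members held more reads in M2. Trim69 held 6 reads in M0 and 15 in M2, a ratio of 0.397 (0.126 to 1.08). Without the level filter its log2 fold change was 0.14 (limma adjusted p = 0.00948). In the authors' deposited comparison Trim69 did not pass (adjusted p = 0.258), and its values ran only from 0.075 to 0.209 TPM. Trim72 held 3 and 12 reads, a ratio of 0.248 (0.045 to 0.920). Trim30b, Trim46, Trim69 and Trim72 were singled out after their values were seen.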
